A study of Mus musculus with 6 samples.

Results

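The cells described here are the score-high cells of GL261-GSCs, the cultured glioma cells labelled glioblastoma stem cells. A score was made for each cell from 8 genes known to respond to low oxygen, Bnip3, Ndrg1, Egln3, Ankrd37, Adm, Pdk1, Vegfa and Slc2a1: their UMIs (unique molecular identifiers, each counting 1 captured RNA molecule) were summed and divided by all UMIs of the cell. Only barcodes with 5000 UMIs or more, 500 genes or more and less than 10% mitochondrial UMIs were scored, and the top 10% of the score in each library made up the score-high class. It held 1834 of the 18333 GL261-GSCs cells that passed these limits, out of 27208 such cells in all 6 libraries: 404, 537, 611 and 282 cells in GL261-GSCs replicates 1 to 4. They were set against the 9166 cells in the bottom 50% of the score in the same 4 libraries, the score-low cells. The members were thus chosen by the measured UMIs of these 8 genes, so their own difference between the classes is given as a description with no test, and all other genes were read in the same cells that had been scored.

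GL261 is an established mouse glioma line, and per the labels the GL261-GSCs cultures were derived from it. GL261 cells (2 libraries) were kept in a differentiation medium with FCS (fetal calf serum), and GL261-GSCs (4 libraries) in a defined medium for glioblastoma stem cells. Cells and neurospheres were taken apart with Accutase, treated with a lysis buffer that held the detergent IGEPAL, and captured in droplets as cells or nuclei for 10x Genomics 5′ gene expression libraries. No oxygen level, treatment or genetic change is given for either group in the sources used here, nor whether the replicates were separate cultures, so that p-values measure the spread between these libraries, which may be technical.

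Hypoxia-inducible factors (HIF) are transcription factors built from an oxygen-regulated alpha subunit, such as Hif1a, and a constant partner, Arnt. With oxygen, prolyl hydroxylases of the Egln family mark the alpha subunit, Vhl binds it and it is degraded. Without oxygen it persists and raises genes for glucose uptake and glycolysis, vessel growth, mitophagy and pH control, and in glioma such programs are best known from the tissue that borders necrosis.

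The promoters of 2 score genes and of Ero1l, the abundant gene with the largest tested rise, are shown because HIF is known to bind cores written ACGTG or GCGTG. They are the 250 bases before the RefSeq start on GRCm38.p6, 5′ to 3′ on the gene's strand, and capitals mark every ACGTG or GCGTG on either strand (a match on the other strand reads CACGT or CACGC), overlapping matches included. They lie at chr7:138909507-138909756 (minus strand) for Bnip3, chr4:119108495-119108744 (plus strand) for Slc2a1 and chr14:45318573-45318822 (minus strand) for Ero1l, which the RefSeq table lists as Ero1a. In GENCODE, the source of the gene coordinates given here, Ero1l spans chr14:45283087-45318771, so its start lies upstream of the RefSeq start, and most of the window with all 3 matches lies inside the gene as annotated there. The other 2 windows overlap the start of the annotated gene by a short stretch.
Bnip3: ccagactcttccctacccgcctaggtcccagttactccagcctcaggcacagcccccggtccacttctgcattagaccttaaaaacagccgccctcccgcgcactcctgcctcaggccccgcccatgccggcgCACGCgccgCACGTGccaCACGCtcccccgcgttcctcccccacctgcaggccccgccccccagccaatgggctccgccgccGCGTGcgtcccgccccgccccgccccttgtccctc
Slc2a1: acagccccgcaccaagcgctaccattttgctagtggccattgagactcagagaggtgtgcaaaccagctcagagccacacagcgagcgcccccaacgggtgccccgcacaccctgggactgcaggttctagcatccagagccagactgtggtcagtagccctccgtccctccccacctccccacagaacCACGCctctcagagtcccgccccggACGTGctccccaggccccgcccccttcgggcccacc
Ero1l: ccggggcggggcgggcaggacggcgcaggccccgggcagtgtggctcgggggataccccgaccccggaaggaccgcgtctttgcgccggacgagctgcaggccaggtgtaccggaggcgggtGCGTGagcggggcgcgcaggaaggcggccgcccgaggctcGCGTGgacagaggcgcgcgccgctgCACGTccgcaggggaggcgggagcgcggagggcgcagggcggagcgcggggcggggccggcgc
Bnip3 had 5 matches, Slc2a1 had 2, at 61 and 36 bases before the start, and Ero1l had 3. Of the 8 score genes, 7 had a window in the table and 6 of these held a match, while the Vegfa window held none. Over all 27025 windows of this length, 38.6% held a match and 16.6% held ACGTG. Among the 9562 of 13157 genes tested below that had a window, 57.9% held a match and 22.4% held ACGTG. Of the genes called higher below, 920 of 1195 had a window, and 58.9% of these held a match and 24.7% ACGTG. Of those called lower, 1354 of 1749 had a window, with 61.4% and 23.9%. These matches describe the letters and do not show binding.

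Each library held 80899005 to 121309232 UMIs over all its barcodes. Libraries shared between 15 and 46 barcodes among cells that passed the limits and at most 1 score-high barcode per pair. GL261-GSCs replicates 3 and 4 were alike, with a mean absolute log2 difference of 0.165 over 7602 genes, as were replicates 1 and 2, at 0.201. Other pairs of GL261-GSCs libraries differed by 0.281 to 0.391. The labels do not set these pairs apart, so values are given per library and fits are repeated without each pair. Olig2 and Sox2, transcription factors used to mark glioma stem cells, were present in the score-high cells of every library, at 383 to 690 and 79.7 to 170 CPM (UMIs of the gene per 1000000 UMIs summed over the cells of a class).

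The score-high class is the upper range of a continuous score, not a separate population. It began at 3.89, 3.62, 11.6 and 15.3 score UMIs per 10000 in replicates 1 to 4, and the first cell outside stood at 3.89, 3.62, 11.6 and 15.3, the same to 3 digits. Between 56 and 128 members per library lay within 10% above that limit. The median member held 7, 5, 14 and 16 score UMIs, against 1, 1, 3 and 3 in score-low cells. The limit thus differed over 4-fold between libraries, and of the 4 libraries only replicates 3 and 4 had many cells above the replicate 4 limit, 272 and 282 cells against 6 and 11 in replicates 1 and 2.

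Slc2a1, the glucose transporter GLUT1 (chr4:119108711-119137983), stood at 404, 330, 475 and 572 CPM in the score-high cells of replicates 1 to 4 and at 33.0, 23.0, 62.1 and 79.6 in the score-low cells. Bnip3 (chr7:138890836-138909519), a mitochondrial outer membrane protein that drives mitophagy, stood at 36.7, 55.5, 525 and 628 against 10.1, 10.4, 60.3 and 107. The gap of both genes to the score-low cells follows from the rule, which used their UMIs. Between libraries, Slc2a1 in the members ranged from 330 to 572 CPM. Bnip3 in the members of replicates 3 and 4 stood far above that in the members of replicates 1 and 2. Vegfa (chr17:46016993-46032369), the main growth signal to vessels, stood at 48.9, 55.2, 235 and 394 against 8.31, 8.11, 25.4 and 45.8. Egln3, a prolyl hydroxylase that HIF itself raises, stood at 20.4, 40.1, 128 and 180 against 7.79, 7.24, 29.0 and 37.2. Both followed the order of Bnip3, low in replicates 1 and 2 and high in 3 and 4. Pdk1, pyruvate dehydrogenase kinase 1, stood at 44.7, 52.8, 105 and 124 against 12.6, 11.6, 29.1 and 38.9. Ankrd37, an ankyrin repeat protein known as a HIF target, stood at 9.32, 11.04, 139 and 156 against 2.79, 2.63, 12.6 and 23.7.

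The other 2 score genes carried almost nothing. Adm, the vessel-dilating peptide adrenomedullin, had 15, 2, 10 and 2 UMIs in all scored cells of replicates 1 to 4. Ndrg1, which marks hypoxia in many tissues and was 1 of the 4 markers given for these cells, had 3 UMIs in replicate 3, none of them in score-high cells, and 0 in the other 3 libraries. A count of 0 allows up to 0.571, 0.509, 0.523 and 1.31 CPM in the score-high cells of replicates 1 to 4 (3 UMIs, counting error only). Barcodes with at least 100 and under 1000 UMIs, taken as free RNA in the droplets, held 53.1 to 180 CPM of Slc2a1 and 26.6 to 339 of Bnip3. For each of the 6 detected genes the free RNA level lay between that of the score-low and that of the score-high cells in all 4 libraries. The part of free RNA in the classes was not tested.

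**Figure D1:**
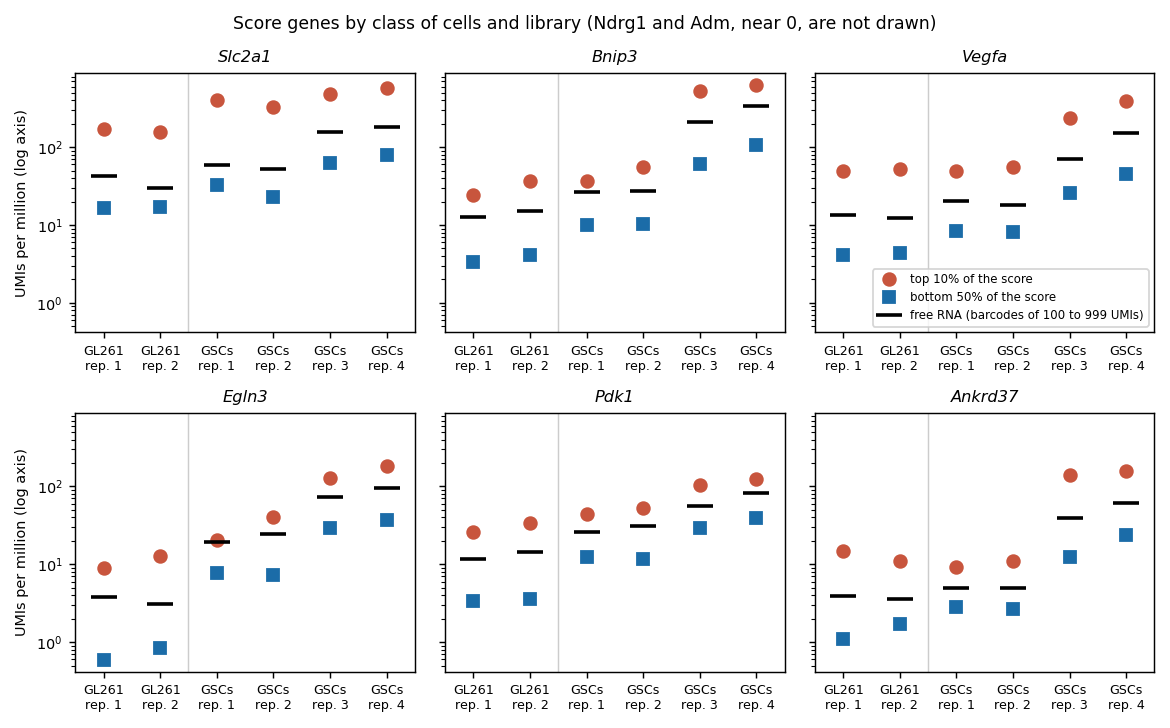
CPM (log axis) of 6 score genes in score-high cells (circles), score-low cells (squares) and free RNA (bars) of each library, including the top 10% and bottom 50% of GL261. In score-high cells of the GL261-GSCs libraries, Bnip3 runs from 36.7 in replicate 1 to 628 in replicate 4, while Slc2a1 stays between 330 and 572. In GL261 replicates 1 and 2 Bnip3 is at 24.6 and 36.4 and Slc2a1 at 170 and 157.

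The makeup of the score differed between libraries. Slc2a1 gave 71.6% and 60.6% of the members' score UMIs in replicates 1 and 2, and 29.6% and 27.8% in replicates 3 and 4. Bnip3 gave 6.51% and 10.2% in replicates 1 and 2, and 32.7% and 30.6% in replicates 3 and 4. In replicates 1 and 2, 68 members (16.8%) and 77 members (14.3%) had UMIs of Slc2a1 and no other score gene. No member did so in replicates 3 and 4. Members with 3 or more of the genes made up 41.8%, 50.5%, 96.4% and 98.9% of the class, at median depths of 12051, 10370, 8754 and 7692 UMIs. Across cells, the correlation of Slc2a1 with the other score genes together was 0.0666, 0.0411, 0.293 and 0.300 (Pearson, shares of UMIs), over 4038, 5366, 6113 and 2816 cells that share a library, given as a description.

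Score-high cells held fewer UMIs than score-low cells. The median score-high cell held 12051, 10370, 8754 and 7692 UMIs in replicates 1 to 4, and the median score-low cell 16022, 12471, 13121 and 10295. The difference was -3261 ± 1081 (SD, n = 4). Total UMIs are the denominator of the score and set the lower limit for scoring, so this is a description with no test, and with the score ranked within UMI deciles the difference was 0.125 UMIs. Mitochondrial UMIs made up 1.96%, 1.72%, 1.63% and 1.74% of the summed UMIs against 1.22%, 1.21%, 1.57% and 1.57%, a difference of 0.369 ± 0.314 percentage points (SD, n = 4, higher in 4 of 4, 2-sided exact sign-flip permutation p = 0.125, the smallest that 4 pairs can give). The median over cells went the other way in replicates 3 and 4, at 1.03% and 1.11% in score-high cells against 1.22% and 1.19%. With the score ranked within UMI deciles the mitochondrial UMI share, high minus low, was 0.0276 points (exact permutation p = 0.75), lower in score-high cells of replicates 3 (1.398% against 1.673%) and 4 (1.444% against 1.658%). With at least 10000 UMIs it was 0.0390 points (exact permutation p = 0.75). Ribosomal protein genes took 12.6%, 14.3%, 16.9% and 16.5% of UMIs against 16.4%, 16.8%, 18.4% and 18.4%. The nuclear RNAs Malat1 and Neat1, with 2 lower ones, took 1.64, 1.45, 1.87 and 1.77 times the share they had in score-low cells. Adjusted over a family of 3 values, the p of the mitochondrial share and that of the G2/M share given below were both 0.125. The third value was the difference in median UMIs, whose p is not read, as total UMIs enter the score. The lists below are also counted with the score ranked among cells of like depth, within deciles of the UMI count.

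Over 13157 other genes, 2944 (22.4%) differed between score-high and score-low cells (adjusted p under 0.05; quasi-likelihood test of edgeR, library as a block, Benjamini-Hochberg), 1195 (9.08%) higher and 1749 (13.3%) lower. With scaling by total UMIs in place of TMM, 2508 were higher and 739 lower and the median log2 change of all genes moved from 0.00 to 0.14. With the score ranked among cells of like depth, 831 (6.31%) were called, 497 (3.77%) higher and 334 (2.54%) lower, and 814 of them had been called before. Fitted without replicates 1 and 2, 5024 genes (37.9%) were called, 2423 higher and 2601 lower. Fitted without replicates 3 and 4, 3682 (25.2%) were called, 1756 higher and 1926 lower. The fits without a pair of libraries each rest on 2 libraries and called 2153 genes in common, 2047 in the same direction, which is 55.6% of the calls in replicates 1 and 2 and 40.7% of those in 3 and 4. When the score was taken from a random part of each cell's UMIs and all values from the other part, 718 genes were higher and 994 lower. With Slc2a1 left out of the score, 0 of 13140 genes were called. With Bnip3, Ndrg1, Egln3 and Vegfa alone as score 0 of 13119 were, and with no replicate block 0 of 13157. These 3 fits held 2516, 2177 and 1675 genes at an unadjusted p under 0.05 (edgeR). When only replicate 3 was left out, 333 were higher and 378 lower, and the counts by list given below fell with it: 4 of 37 other HIF targets, 1 of 20 glycolysis genes and 1 of 22 sterol genes were then higher, and 11 of 30 nuclear-coded respiratory genes, 0 of 26 G1/S genes and 6 of 28 G2/M genes lower. Of the p53, immediate early and angiogenic lists 3 of 12, 4 of 18 and 2 of 9 were then higher and 0 lower.

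Each score gene was also read in cells ranked by the other 7, so that it did not choose its own cells. Vegfa stood at 31.3, 28.5, 170 and 280 CPM in the top 10% so chosen and 15.7, 19.2, 36.0 and 66.5 in the bottom 50%, a log2 change of 1.46 (SE 0.25, adjusted p = 0.0103, edgeR), where 17.0% of genes were called. Bnip3 stood at 20.97, 29.0, 354 and 420 against 18.8, 21.5, 102 and 165, a log2 change of 0.84 (SE 0.22, adjusted p = 0.0183, edgeR), where 34.2% were called. Ankrd37 stood at 5.39, 6.15, 101 and 121 against 5.25, 5.81, 18.1 and 32.4, a log2 change of 1.36 (SE 0.36, adjusted p = 0.0267, edgeR), where 24.9% were called. All 3 rose, with the wider gaps in replicates 3 and 4. In replicates 1 and 2 Ankrd37 was close between the classes, as was Bnip3 in replicate 1. Bnip3 in replicate 2 and Vegfa in both were higher in the top 10%. Pdk1 (log2 change 0.54, adjusted p = 0.0658) and Egln3 (0.73, 0.0722) did not pass in edgeR, and 20.6% and 23.7% of genes did in their fits. Slc2a1 stood at 117, 96.4, 302 and 335 against 91.9, 73.2, 96.3 and 115, a log2 change of 0.94 with an adjusted p of 0.216. In that fit edgeR called 0 genes, with 2516 at an unadjusted p under 0.05.

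Without replicates 1 and 2 all 6 genes were called, with log2 changes of 2.08 for Vegfa, 1.37 for Bnip3, 2.10 for Ankrd37, 0.997 for Pdk1, 1.38 for Egln3 and 1.53 for Slc2a1. The fits of these 6 genes called from 4430 of 13246 to 5462 of 13258 of all genes. Without replicates 3 and 4 the log2 changes were 0.67, 0.18, -0.06, 0.04, -0.12 and 0.31, and 2 of the 6 genes were called. There the fits called from 930 of 14384 to 4193 of 14714 genes. Leaving out replicate 3 alone left 1 of the 6 called, in fits that called from 0 of 13126 to 2096 of 13185 genes. Leaving out replicate 1 gave 5, in fits that called from 0 of 13189 to 3557 of 13180. When the UMIs of each cell were split at random into equal parts, the score in the first part correlated with that in the other at 0.347, 0.326, 0.602 and 0.569 in replicates 1 to 4.

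**Figure D2:**
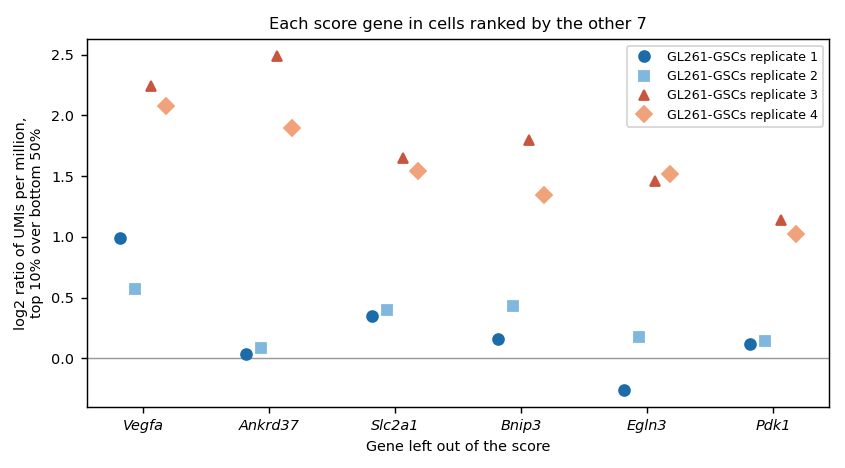
Log2 ratio of CPM between the top 10% and the bottom 50% of cells ranked by the other 7 score genes (vertical axis), for 6 genes and each GL261-GSCs library. Replicates 3 and 4 lie above replicates 1 and 2 for every gene, and Vegfa is the gene with the highest ratio in replicate 1.

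Known HIF targets outside the score were often higher in the score-high cells, with the large differences in replicates 3 and 4. Of 46 listed targets 38 were tested: 20 were higher and 0 lower, against 9.08% and 13.3% of all genes, with a median log2 change of 0.55 against 0.00. Their summed share of UMIs was 0.403%, 0.413%, 1.005% and 1.15% in score-high cells of replicates 1 to 4 and 0.412%, 0.387%, 0.512% and 0.607% in score-low cells. Cells of replicates 1 and 2 showed next to no difference in this sum, and those of 3 and 4 a ratio of 1.96 and 1.90. The median over score-high cells was 37.8, 38.2, 100.4 and 110.5 UMIs per 10000, against 40.7, 38.3, 49.5 and 58.4. Without replicates 1 and 2, 34 of 38 were higher and 0 lower, against 2423 and 2601 of 13246 genes. Without replicates 3 and 4, 11 of 36 were higher and 4 lower, against 1756 and 1926 of 14597. Among cells of like depth 11 of 38 were higher and 0 lower, where 3.77% of genes were higher. With at least 10000 UMIs 8 of 37 were higher, where 306 of 12200 genes were. The summed share of listed HIF targets outside the score thus went with the name hypoxia-high in replicates 3 and 4. In replicates 1 and 2 it did not, and the class there is called by its rule, score-high. Slc2a1 gave 71.6% and 60.6% of the members' score UMIs there, values that the rule itself used. The list of HIF targets was chosen with earlier results of these data known, so it is no independent test of the name.

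Ero1l (chr14:45283087-45318771), an oxidase that forms disulfide bonds in the endoplasmic reticulum, stood at 237, 185, 977 and 2011 CPM in score-high cells and 123, 87.4, 140 and 241 in score-low cells. It rose in 4 of 4 libraries, by a log2 change of 1.85 (SE 0.36, adjusted p = 0.0106, edgeR), the largest among abundant genes. The same sign in 4 libraries was a condition of that ranking. Ero1l passed in 17 of 21 other settings, with log2 changes from 0.89 to 2.83. Among genes of collagen and matrix modification, P4ha2 stood at 19.98, 17.7, 89.5 and 127 against 12.1, 11.9, 24.6 and 33.0. P4ha1, like P4ha2 a prolyl hydroxylase of collagen, stood at 107, 95.1, 451 and 593 against 67.9, 65.7, 154 and 220. They rose by 1.22 (SE 0.23, adjusted p = 0.00992) and 0.92 (SE 0.17, adjusted p = 0.00955) in edgeR. Plod2, a lysyl hydroxylase of collagen, rose by 0.97 (adjusted p = 0.026). All 3 showed the wider gap in replicates 3 and 4.

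Bhlhe40, a transcriptional repressor that HIF raises, stood at 22.8, 24.6, 135 and 186 against 12.01, 15.6, 20.6 and 38.5, and rose by 1.60 (SE 0.31, adjusted p = 0.0111, edgeR). Ddit4, which restrains mTORC1, stood at 556, 519, 1701 and 1597 against 486, 391, 693 and 993, and rose by 0.51 (SE 0.16, adjusted p = 0.0452). Car9, a carbonic anhydrase at the cell surface that acts in pH control, was low throughout, at 3.996, 3.74, 5.41 and 19.3 against 2.43, 1.59, 1.44 and 4.13. It rose by 1.43 (SE 0.27, adjusted p = 0.00966, edgeR). Ppp1r3c, which steers glycogen synthesis, had the largest change of the list, 2.18 (SE 0.29, adjusted p = 0.00654), from levels under 3 CPM in score-low cells. Gys1, glycogen synthase, rose by 0.87. The histone demethylases Kdm3a and Kdm4b rose by 0.73 and 0.61, and the MYC antagonist Mxi1 by 0.65 (adjusted p = 0.0191, 0.049 and 0.0389, edgeR). Egln1, the main oxygen sensor among the prolyl hydroxylases, did not pass (0.44, adjusted p = 0.263), with 69.1, 78.9, 229 and 290 against 83.9, 84.1, 92.3 and 120. Its fit without replicates 3 and 4 gave -0.30 (adjusted p = 0.00136) and without replicates 1 and 2 gave 1.18.

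Hmox1, the heme-degrading enzyme, had a log2 change of 1.59 (SE 0.26, adjusted p = 0.00711, edgeR), but its level rested partly on single cells. Of its 907 UMIs in score-high cells of replicate 2, 609 lay in 1 cell. The levels were 38.6, 154, 34.02 and 33.7 CPM against 24.7, 28.1, 8.32 and 10.9, so that the ratio in replicate 2 is largely that cell.

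Glycolysis genes also differed by library. Of 20 listed genes, all tested, 6 were higher and 0 lower, against 9.08% of all genes higher, with a median log2 change of 0.30. These were the hexokinases Hk1 (0.45) and Hk2 (0.65), the phosphofructokinase Pfkp (0.75), the enolase Eno2 (1.35), the glucose transporter Slc2a3 (1.42) and the lactate exporter Slc16a3 (0.33), with adjusted p from 0.00582 to 0.0262 (edgeR). Eno2 stood at 12.4, 16.6, 22.9 and 29.8 CPM against 6.85, 5.67, 6.63 and 9.30, higher in all 4 libraries. The abundant enzymes did not pass: Pgk1 (0.21, adjusted p = 0.281), Ldha (0.11, 0.604) and Aldoa (0.43, 0.130). Pgk1, phosphoglycerate kinase, stood at 358, 201, 1116 and 1271 against 361, 196, 680 and 825, level in replicates 1 and 2 and higher in 3 and 4. Aldoa, an aldolase, whose symbol stands for more than 1 feature in the files, stood at 676, 667, 2493 and 3322 against 684, 609, 1154 and 1622.

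The summed glycolysis share was 0.558%, 0.567%, 1.63% and 1.81% against 0.553%, 0.546%, 0.937% and 1.11%, ratios of 1.01, 1.04, 1.74 and 1.63. Without replicates 1 and 2, 18 of 20 genes were higher and 1 lower, against 2423 and 2601 of 13246 genes. Without replicates 3 and 4, 5 were higher and 2 lower, against 1756 and 1926 of 14597. Among cells of like depth 4 of 20 were higher, where 3.77% of genes were. Over 10 bins of the score with equal cell numbers, from the lowest to the highest, the share went from 0.531% to 0.559%, 0.534% to 0.568%, 0.809% to 1.63% and 0.904% to 1.81% in replicates 1 to 4. In replicates 3 and 4 it climbed through all bins, and in replicates 1 and 2 it was level. Even the lowest bin of replicates 3 and 4 lay above the highest bin of replicates 1 and 2.

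**Figure D3:**
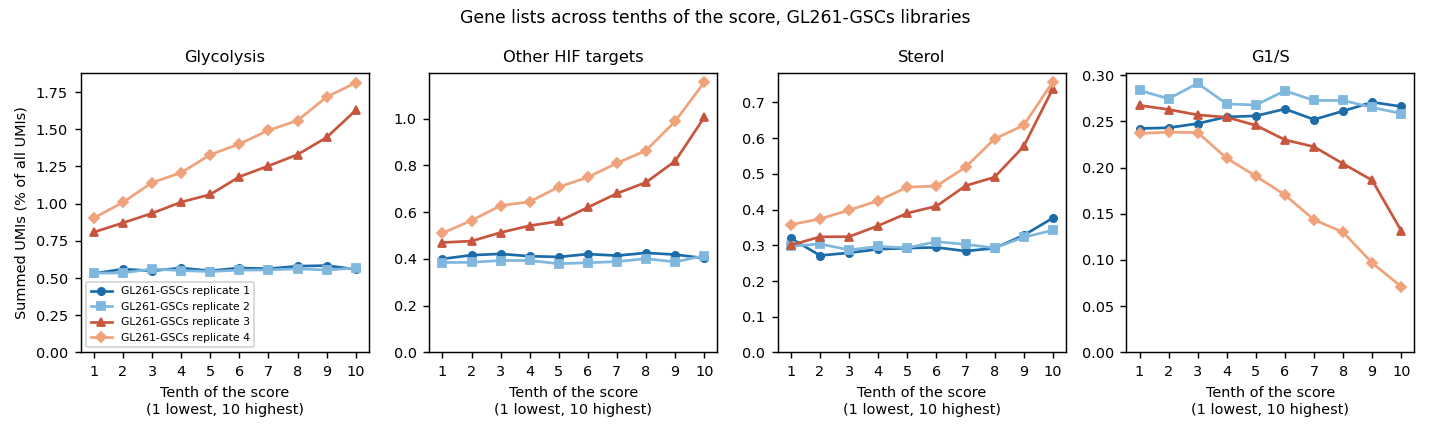
Summed UMIs (percent of all UMIs) of 4 gene lists in 10 bins of the score of each GL261-GSCs library, from 1 (lowest) to 10 (highest), 1 line per library. Glycolysis, other HIF targets and sterol genes climb and G1/S genes decline along the score in replicates 3 and 4, with the glycolysis share reaching 1.63% and 1.81%. In replicates 1 and 2 glycolysis and other HIF targets stay nearly level, and sterol genes reach 0.376% and 0.342% in the highest bin.

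Of 14 listed genes that sense oxygen and carry the HIF response 12 were tested, and 2 were higher and 3 lower, against 9.08% and 13.3% of all genes. Hif1a, the alpha subunit, stood at 85.4, 102, 86.5 and 95.9 CPM against 77.8, 80.9, 65.6 and 66.6 and did not pass (0.21, adjusted p = 0.116, edgeR). Vhl, which binds the hydroxylated subunit, did not pass either (0.11, adjusted p = 0.596). Epas1, the alternative alpha subunit HIF-2 alpha, had 0 UMIs in both classes of all 4 libraries, within the limits given above for 0 UMIs. Hif3a, a further alpha subunit, rose by 0.60 (adjusted p = 0.0183) and the coactivator Ep300 by 0.32 (adjusted p = 0.0253). Elob, Eloc and Rbx1, the partners of Vhl in its ubiquitin ligase, fell by 0.51, 0.45 and 0.34 (adjusted p = 0.00706, 0.0147 and 0.0157). Scaling by total UMIs gave 4 higher and 2 lower in this list, against 2508 and 739 of 13157 genes, and among cells of like depth 1 was higher and 1 lower, against 3.77% and 2.54%.

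Of 20 angiogenic ligands and receptors outside the score 10 were tested, and 4 were higher and 1 lower, against 9.08% and 13.3% of all genes (2 and 1 among cells of like depth, against 3.77% and 2.54%). Pgf, placental growth factor and a relative of Vegfa, stood at 3.81, 2.72, 4.36 and 7.88 against 1.43, 1.24, 0.734 and 1.18 and rose by 1.78 (SE 0.32, adjusted p = 0.00861, edgeR). Ramp1, a partner of receptors for peptides of the calcitonin family, rose by 1.17 (adjusted p = 0.00955), Fgf1, a growth factor, by 1.15 (0.0219) and Nrp2, a co-receptor for Vegfa-type ligands, by 0.42 (0.0394). Ramp2, the partner that makes the adrenomedullin receptor, fell by 0.40 (adjusted p = 0.0177). These genes were low, apart from Ramp2 and Nrp2, and Pgf rested on few UMIs per library.

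Nuclear-coded genes of the respiratory chain were lower in score-high cells of all 4 libraries. Of 32 listed 30 were tested, with 0 higher and 20 lower, against 13.3% of all genes lower, and a median log2 change of -0.38. Their share of UMIs was 1.69%, 1.67%, 1.43% and 1.27% against 1.93%, 1.87%, 1.71% and 1.63%. Atp5g1, a subunit of ATP synthase, stood at 454, 464, 272 and 233 CPM against 608, 585, 451 and 412 and fell by 0.71 (log2, SE 0.10, adjusted p = 0.00657 in edgeR). Uqcrb of complex III fell by 0.50 and Cox5a of complex IV by 0.57 (adjusted p = 0.00657 and 0.00708), each lower in 4 of 4 libraries. Fitted without replicates 1 and 2, 26 of 30 were lower, against 2601 of 13246 genes, and without replicates 3 and 4, 23 of 30, against 1926 of 14597. With at least 10000 UMIs per cell 1 of 30 was lower, at a median of -0.20, where 78 of 12200 genes were. In cells of like depth 8 of 30 were lower, where 2.54% of genes were. The ratio of the shares was 0.878, 0.895, 0.838 and 0.776 in replicates 1 to 4, furthest below 1 in replicates 3 and 4.

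Mitochondrially coded genes of the chain differed by library. Of 12 tested 2 were higher, against 9.08% of all genes, mt-Nd6 (0.88, adjusted p = 0.00245) and mt-Co1 (0.57, adjusted p = 0.00588, edgeR), and their summed share had ratios of 1.53, 1.39, 0.98 and 1.04 in replicates 1 to 4. Without replicates 3 and 4, 8 of 13 were higher, against 1756 of 14597 genes. Without replicates 1 and 2, 2 of 12 were higher and 5 lower, against 2423 and 2601 of 13246 genes, with a median log2 change of -0.25. The median log2 ratio (TMM-scaled) of the 12 was 0.43, 0.40, -0.33 and -0.19 in replicates 1 to 4. Of the 12, 12, 12, 4 and 4 lay above 0 in these libraries. Of 15 mitophagy and autophagy genes 1 was higher and 2 lower, a share near the 22.4% called among all genes. Sqstm1, a cargo receptor of autophagy, rose by 0.66 (adjusted p = 0.00657), while Phb2, a mitophagy receptor of the inner membrane, and Fkbp8 fell by 0.57 and 0.25 (0.00927 and 0.0406). Scaling by total UMIs gave 6 higher and 1 lower in this list, with 2508 of all 13157 genes higher and their median shifted to 0.14. With depth matched, 2 mitochondrially coded genes and 1 of the mitophagy and autophagy list were higher, against 3.77% of all genes.

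Genes of DNA replication were lower in score-high cells of replicates 3 and 4 and, by less, of replicate 2. The median log2 ratio (TMM-scaled) of the G1/S list was 0.00158, -0.218, -1.25 and -1.89 in replicates 1 to 4. Of its 26 genes 13, 1, 0 and 0 lay above 0. Of 26 G1/S genes 0 were higher and 7 lower, against 13.3% of all genes lower, with a median log2 change of -0.72. The count of lower genes was 18 without replicate 1, 2 without replicate 4, 3 with scaling by total UMIs and 25 with no filter on low counts, where 1124 of 13167, 998 of 14438, 739 of 13157 and 2886 of 27775 genes were lower. Their share of UMIs was 0.266%, 0.258%, 0.131% and 0.0711% against 0.249%, 0.277%, 0.257% and 0.224%. The median over score-high cells was 24.7, 24.7, 8.75 and 4.53 UMIs per 10000 against 21.6, 26.0, 23.9 and 18.6. Without replicates 1 and 2 all 26 were lower, against 2601 of 13246 genes. Without replicates 3 and 4, 5 were lower and 1 higher, against 1926 and 1756 of 14597 genes, so the lower count there was not far from that of all genes. Rrm2, a subunit of ribonucleotide reductase, stood at 75.0, 99.5, 39.6 and 21.02 CPM against 83.9, 117, 108 and 90.2 and fell by 0.99 (SE 0.27, adjusted p = 0.0304, edgeR). Pcna, the sliding clamp of replication, did not pass (-0.45, adjusted p = 0.127). Among cells of like depth 0 of the 26 were called at a median of -0.52, in a fit that called 831 genes.

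Of 28 G2/M genes 0 were higher and 14 lower, against 13.3% of all genes lower. Their share was 0.417%, 0.433%, 0.418% and 0.303% in score-high cells and 0.432%, 0.487%, 0.473% and 0.455% in score-low cells. The median over cells was 27.7, 29.7, 10.1 and 6.20 UMIs per 10000 against 34.2, 37.4, 30.5 and 22.5, with the wider gaps in replicates 3 and 4. The difference in share was -0.0692 ± 0.0583 percentage points (SD, n = 4), lower in 4 of 4 libraries, with an exact permutation p of 0.125, the smallest possible. With the score ranked within UMI deciles the G2/M UMI share, high minus low, was -0.0203 points (exact permutation p = 0.625), with replicate 3 the other way (0.503% against 0.458%), as also with at least 10000 UMIs (0.4999% against 0.4708%). Birc5, which acts in chromosome segregation, fell by 0.83 (adjusted p = 0.00955), Cenpa, the centromeric histone, by 0.55 (0.00723) and Aurka, a mitotic kinase, by 0.50 (0.00703, edgeR). Mki67 and Top2a, common markers of cycling cells, did not pass (-0.16 and -0.18, adjusted p = 0.328 and 0.268). In cells of like depth 1 of 28 was lower and with at least 10000 UMIs 0, in a fit that called 384 genes. The count was 8 with scaling by total UMIs (739 of 13157 genes lower) and 10, 9 and 9 without replicate 1, 2 or 4 (1124 of 13167, 1127 of 13142 and 998 of 14438).

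Some sterol genes rose. Of 23 genes of cholesterol synthesis and uptake 22 were tested, with 9 higher and 0 lower, against 9.08% of all genes higher, and a median log2 change of 0.46. The other 13 did not pass. Their share was 0.376%, 0.342%, 0.738% and 0.760% against 0.288%, 0.295%, 0.338% and 0.402%, ratios of 1.31, 1.16, 2.18 and 1.89. Cyp51, a demethylase of the pathway, stood at 659, 471, 1017 and 1119 CPM against 409, 377, 432 and 479 and rose by 0.74 (SE 0.15, adjusted p = 0.0124, edgeR). Srebf2, the transcription factor of the pathway, rose by 0.41 (0.0199) and its inhibitor Insig1 by 0.66 (0.0407). Fitted without replicates 1 and 2, 20 of 22 were higher, against 2423 of 13246 genes. Without replicates 3 and 4, 9 were higher and 2 lower of 23, against 1756 and 1926 of 14597 genes. With depth matched 4 were higher, against 3.77% of genes. In cells with at least 10000 UMIs, 1 of 22 was higher, where 306 of 12200 genes were. The median log2 change of the list was 0.44 there and 0.40 among cells of like depth.

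**Figure D4:**
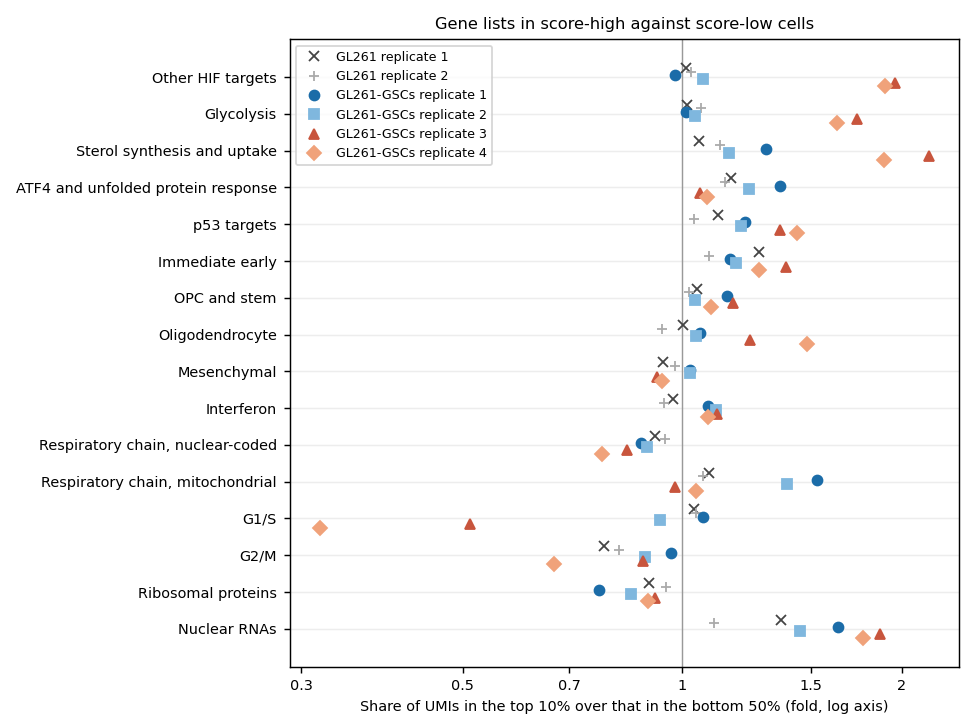
Share of UMIs of each gene list in the top 10% of the score over that in the bottom 50% (fold, log axis), 1 point per library, GL261 included. HIF targets, glycolysis and sterol genes separate GL261-GSCs replicates 3 and 4, up to 2.18, from the other libraries, while nuclear-coded respiratory genes lie below 1 in every library.

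Stress genes of the ATF4 and unfolded protein response were higher in 8 of 24 and lower in 1, against 9.08% of all genes higher and 13.3% lower. Ddit3 (CHOP), a transcription factor of that response whose symbol also stands for more than 1 feature, stood at 35.2, 42.1, 38.9 and 51.2 CPM against 18.1, 23.5, 18.9 and 19.8 and rose by 0.90 (SE 0.11, adjusted p = 0.00582, edgeR). Chac1 and Trib3, targets of ATF4, rose by 1.24 and 1.12, and Sesn2 by 0.90 (adjusted p = 0.00599, 0.00708 and 0.00582). Phgdh, of serine synthesis, fell by 0.34 (0.0342). The summed share of the list had ratios of 1.36, 1.23, 1.06 and 1.08, with the larger ones in replicates 1 and 2. The median over cells was 58.9, 51.4, 35.5 and 36.3 UMIs per 10000 against 42.8, 44.97, 41.6 and 36.7, lower in score-high cells of replicates 3 and 4. Of the list, 7 were higher among cells of like depth, against 3.77% of all genes. Without replicates 3 and 4, 15 of 24 were higher and 0 lower, against 1756 and 1926 of 14597 genes. Without replicates 1 and 2, 9 were higher and 6 lower, against 2423 and 2601 of 13246. Of 12 p53 target genes tested 6 were higher and 2 lower, against the same 9.08% and 13.3%, and 3 and 0 among cells of like depth, against 3.77% and 2.54%. Gadd45a rose by 1.18, Btg2 by 0.87 and Cdkn1a, the cyclin-dependent kinase inhibitor p21, by 0.66 (adjusted p = 0.00196, 0.00299 and 0.00657), while Bax fell by 0.41 (0.00966). Cdkn1a stood at 180, 161, 275 and 355 against 113, 99.2, 164 and 169, higher in all 4 libraries.

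Of 18 immediate early genes tested 7 were higher and 3 lower, against 9.08% and 13.3% of all genes, and 6 and 1 among cells of like depth, against 3.77% and 2.54%. Fos, a subunit of AP-1, stood at 144, 135, 182 and 143 against 96.9, 78.3, 63.8 and 53.7 and rose by 0.93 (SE 0.16, adjusted p = 0.00742, edgeR). Atf3, in this list and in that of the ATF4 response, stood at 72.7, 66.0, 31.9 and 43.4 against 32.0, 24.5, 12.9 and 15.2 and rose by 1.21 (SE 0.09, adjusted p = 0.000686). Klf2, a transcription factor, fell by 0.95 (0.0155). Of 18 interferon genes tested 4 were higher and 1 lower, against 9.08% and 13.3% of all genes. Among cells of like depth 2 were higher, against 3.77%. Rsad2 (viperin), an antiviral enzyme, stood at 108, 54.2, 46.9 and 31.1 against 34.6, 19.8, 15.5 and 14.7 and rose by 1.34 (SE 0.10, adjusted p = 0.000686), and H2-K1, an MHC class I chain, rose by 0.48 (0.0123).

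Of 23 oligodendrocyte precursor and stem genes tested 4 were higher and 1 lower, against 9.08% and 13.3% of all genes. With depth matched, 2 were higher and 1 lower, against 3.77% and 2.54%. Olig2 fell by 0.34 (SE 0.07, adjusted p = 0.0145, edgeR), from 408, 441, 816 and 743 CPM to 383, 393, 690 and 586. Id3, an inhibitor of differentiation factors, rose by 0.83 (0.0128) and the surface receptor Cd44 by 0.31 (0.0252). Sox2 and Pdgfra did not pass (-0.06 and 0.11, adjusted p = 0.663 and 0.503). Of 13 oligodendrocyte genes tested 3 were higher and 0 lower, against the same 9.08% and 13.3%. These were Itpr2 (0.58), Opalin (0.50) and Gpr17 (0.78), and Mbp did not pass (0.07, adjusted p = 0.778, edgeR). None of 12 oligodendrocyte genes passed in edgeR among cells of like depth, where 6.31% of genes did. Without replicate 4, 0 of 14 passed, where 627 of 14438 genes were higher and 998 lower. Of 19 mesenchymal genes tested 5 were higher and 2 lower, against 9.08% and 13.3% of all genes, and 3 and 1 among cells of like depth, against 3.77% and 2.54%. Scaling by total UMIs gave 11 higher and 1 lower, against 2508 and 739 of 13157 genes. Without replicate 2 there were 2 higher and 2 lower of 18, against 807 and 1127 of 13142 genes. The summed share of the list had ratios of 1.03, 1.03, 0.924 and 0.938, below 1 in replicates 3 and 4. Lgals3, galectin-3, stood at 116, 61.5, 443 and 392 against 38.6, 13.9, 213 and 193 and rose by 1.29 (SE 0.17, adjusted p = 0.00626), while Tagln2, an actin-binding protein, fell by 0.69 (0.00657). Spp1, osteopontin, was higher (1.88, adjusted p = 0.0425), with 629 of its 677 UMIs in score-high cells of replicate 1 lying in 10 cells.

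Markers of microglia, endothelium and red blood cells were close to absent. The score-high cells of a library held 0 to 4 UMIs of 8 microglial genes, 0 to 5 of 5 endothelial genes and 0 to 2 of 5 erythroid genes, among 2283273 to 5889947 UMIs. In all scored cells of a library 4 to 7 of the microglial, 3 to 4 of the endothelial and 3 to 5 of the erythroid genes had 0 UMIs. Of 6 neuronal, 5 astrocytic and 6 mural or fibroblast genes, 1 each was abundant enough to test. Their summed levels were 5 to 447, 135 to 934 and 57 to 177 UMIs in score-high cells and 48 to 1663, 616 to 3824 and 232 to 949 in the more numerous score-low cells. The astrocytic share of UMIs was 1.53, 1.27, 1.29 and 1.46 times that in score-low cells, and the mural or fibroblast share 1.82, 1.403, 1.33 and 1.64 times, higher in all 4 libraries, and the neuronal share 0.654, 1.16, 1.92 and 1.13 times. Gja1, a gap junction gene, rose by 0.33 (adjusted p = 0.023) and Col1a1, a collagen, by 0.44 (0.0247, edgeR), and Syt1, a synaptic vesicle gene, did not pass (0.31, 0.191). Their part in the results was not tested.

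Several of the strongest rises were of similar size in all 4 libraries. Gpnmb, a lysosomal and surface glycoprotein, stood at 1024, 1555, 1486 and 2000 CPM in score-high cells against 375, 523, 452 and 592 and rose by 1.49 (SE 0.08, adjusted p = 0.000215, edgeR). Eps8, which acts on the actin cytoskeleton, stood at 176, 144, 299 and 263 against 72.0, 52.1, 109 and 100.3 and rose by 1.27 (SE 0.08, adjusted p = 0.000215). Dner, a ligand of Notch, stood at 54.6, 72.5, 144 and 192 against 23.8, 30.3, 63.6 and 76.5 and rose by 1.11 (SE 0.08, adjusted p = 0.000552). None of these 3 is in a list given above, and their ratios varied less between libraries than those of Ero1l. Col2a1, a collagen chain of cartilage, did the opposite: it stood at 70.0, 75.6, 421 and 1160 against 50.5, 48.5, 43.3 and 137 and rose by 1.78 (SE 0.49, adjusted p = 0.0329), nearly all of it in replicates 3 and 4. It did not pass without replicate 3 (adjusted p = 0.130), without replicate 4 (0.0999), with the top 20% (0.0557), with at least 10000 UMIs (0.0611) or within UMI deciles (0.0620, all edgeR). Thbs2, a matrix protein that restrains vessel growth, rose by 1.23 (SE 0.21, adjusted p = 0.00801) with the smaller ratios in replicates 3 and 4.

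Pclaf, which binds Pcna, led the 12 largest falls among abundant genes. It stood at 143, 159, 59.1 and 32.4 CPM against 163, 210, 157 and 151 and fell by 1.09 (SE 0.27, adjusted p = 0.0230, edgeR). Next came Rrm2 (-0.99), Lsm2 of the Lsm ring that binds RNA (-0.97), the nucleotide phosphatases Dut and Dctpp1 (-0.95 each), thymidine kinase Tk1 (-0.94), the nucleolar genes Lyar and Nhp2 (-0.91 each), Cdca7 (-0.91), thymidylate synthase Tyms (-0.88), the kinetochore gene Pmf1 (-0.86) and pyrophosphatase Ppa1 (-0.86), with adjusted p from 0.00713 to 0.0304. All 12 were lower in 4 of 4 libraries, as a condition of being named, and each was lower by more in replicates 3 and 4. Among cells of like depth, Dctpp1, Lyar, Lsm2, Pmf1 and Cdca7 had adjusted p from 0.0326 to 0.0497 (edgeR), and the other 7 did not pass.

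**Figure D5:**
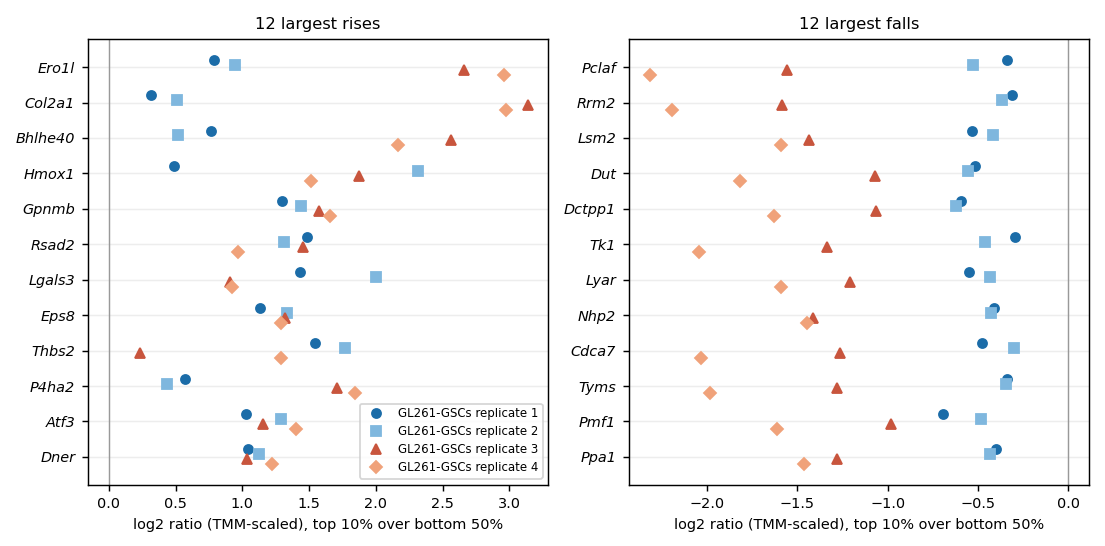
Log2 ratio (TMM-scaled) of score-high over score-low cells in each GL261-GSCs library for the 12 largest rises (left) and falls (right) among abundant genes. Gpnmb, Eps8 and Dner cluster tightly over the libraries, and Ero1l and Col2a1 spread widely, with replicates 3 and 4 highest.

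Across cells, the genes whose level followed the score most closely were ranked by the mean over the 4 libraries of the Pearson correlation (log of UMIs per 10000, 9828 genes seen in at least 5% of cells of each library). Ero1l came first, at 0.202, 0.199, 0.552 and 0.571 in replicates 1 to 4. Acsl3, an acyl-CoA synthetase of lipid droplets, had a mean of 0.265, Gpnmb 0.251, P4ha1 0.250, Col2a1 0.242, Malat1 0.233, Bhlhe40 0.222, mt-Co1 0.221, Syt4 0.213 and Eps8 0.211. The means of Acsl3, P4ha1, Col2a1 and Bhlhe40 rested mainly on replicates 3 and 4. Bhlhe40 stood at 0.0904, 0.0172, 0.395 and 0.384 in replicates 1 to 4, and Col2a1 at 0.0832, 0.0718, 0.394 and 0.418. Gpnmb varied less, at 0.236, 0.184, 0.265 and 0.318, as did Syt4, at 0.241, 0.201, 0.185 and 0.223. The gene in first place was Reln in replicate 1 (0.272), Slc30a4, a zinc transporter, in replicate 2 (0.229) and Ero1l in replicates 3 and 4. These values are descriptions over cells of the same libraries, which share depth and the denominator of the score.

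The same rule applied to GL261 took 888 cells, 436 and 452 in replicates 1 and 2, from limits of 2.16 and 2.27 score UMIs per 10000. In these cells Slc2a1 stood at 170 and 157 CPM, Bnip3 at 24.6 and 36.4 and Vegfa at 49.5 and 53.1. The members' Vegfa was thus close to that of GL261-GSCs replicates 1 and 2. Within GL261, 1032 of 13864 genes (7.44%) were called, 411 (2.96%) higher and 621 (4.48%) lower, in the top 10% (edgeR), a fit that rests on 2 libraries. In it 25 of 28 G2/M and 15 of 31 nuclear-coded respiratory genes were lower and 0 higher, and 13 of 24 ATF4 genes higher and 0 lower. Other HIF targets had 8 of 37 higher and 1 lower, glycolysis 4 and 0 of 20, and G1/S 1 and 1 of 26. The G2/M share, high minus low, was -0.0988 and -0.0925 percentage points in GL261 replicates 1 and 2. The high-low change itself differed between GL261-GSCs and GL261 in 8 of 14600 genes (0.0548%, edgeR, interaction term), all larger in GL261-GSCs. With the UMIs of each cell split at random into equal parts, the scores of the parts correlated at 0.173 and 0.100 in GL261. In the part not scored, the GL261 classes held 1.49 against 0.874 and 1.35 against 0.960 score UMIs per 10000. In GL261-GSCs these were 3.62 against 1.41, 3.16 against 1.43, 12.6 against 3.07 and 16.3 against 4.59. The GL261 classes were thus less apart, and the part of this in the differences was not tested. Gpnmb stood at 438 and 281 against 381 and 258 in GL261, and its change differed by 1.43 (adjusted p = 0.00258). Eps8 stood at 386 and 328 against 360 and 305 in GL261, and its change differed by 1.27 (adjusted p = 0.00269). Without GL261-GSCs replicates 1 and 2, 3345 genes (23.7%) differed, without replicates 3 and 4, 820 (5.33%), and without either GL261 library 0, with 707 and 686 at an unadjusted p under 0.05.

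Over all cells that passed the limits, score genes took 0.969 and 1.02 UMIs per 10000 in GL261 and 1.79, 1.70, 4.95 and 7.07 in GL261-GSCs. The means were 0.995 ± 0.0369 (SD, n = 2) and 3.88 ± 2.61 (SD, n = 4), a difference of 2.88 with an exact permutation p of 0.133 (2-sided), the smallest that 15 splits can give. The groups did not overlap, and 52.5% and 71.2% of the cells of replicates 3 and 4 exceeded the score-high limit of replicate 1. In the summed UMIs of all these cells, where 32.5% of 18153 genes differed between the groups (17.6% with GL261-GSCs above, 14.9% below), Egln3 rose by 3.52 (SE 0.79, adjusted p = 0.0160, edgeR), Pdk1 by 1.78 (0.0276) and Slc2a1 by 1.05 (0.0467). Bnip3 (3.22, adjusted p = 0.0812), Ankrd37 (2.4997, 0.126) and Vegfa (1.65, 0.162) did not pass, with GL261-GSCs libraries that differed widely: Bnip3 stood at 19.8, 23.4, 159.98 and 236 CPM in replicates 1 to 4 and at 9.55 and 12.4 in GL261.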

How the data were processed

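Gene expression was measured in 6 libraries of 10x Genomics 5′ single-cell RNA-seq. The deposited files hold raw UMI counts for 54446 features and 737280 barcodes per library, made with Cell Ranger 4 per the file headers and mm10 per the submitters' processing notes. The gene annotation they used was not stated. Cell limits, score and classes were as in the report. Doublets were neither called nor removed. For 94 rows with a repeated symbol the feature with most UMIs was taken, which touches Aldoa, Atp5o and Ddit3. Of the feature IDs, 54409 matched GENCODE M21 (GRCm38), the source of the gene coordinates.

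UMIs were summed per library and class. Levels are CPM, UMIs per 1000000 summed UMIs. Score-high and score-low sums were compared with edgeR's quasi-likelihood test on counts, TMM scaling, edgeR's filter on low counts, and the library as a block, since both classes come from the same cells' library; score genes were left out of that test. SE is the absolute log2 change over the root of F. The differences between GL261-GSCs and GL261 in that change were tested as an interaction, and levels over all cells without a block. P-values were adjusted by Benjamini-Hochberg over all genes of a fit, at 0.05. Single values per library were compared by exact permutation. The scripts were tested on simulated data. Of 200 genes changed by a log2 of 1, the high-low fit recovered 188, the interaction 139 and the fit over all cells 5. With a log2 of 2 these were 199, 185 and 185. A gene that did not pass in the fit over all cells can thus still differ by a log2 of 1.

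Members and gene lists were chosen with earlier results of these data known. Named genes were the score genes, the 12 largest rises and 12 largest falls with average log2 CPM of 5 or more and the same sign in 4 libraries (no predicted, mitochondrial or ribosomal protein genes), the 3 smallest p of each list, a fixed set of known genes, and the 10 genes likest the score; Plod2, Gys1, Kdm3a, Kdm4b, Mxi1 and others of the lists were named after their values were seen. Alternatives were DESeq2, other scalings, no filter, other class limits, depth limits and scores, and each library left out. Leaving out pairs of libraries and the score without Slc2a1 were chosen after seeing the data. Tools were R 4.3.3, edgeR 4.0.16, DESeq2 1.42.0, Python 3.11.15, numpy 2.4.6, scipy 1.17.1 and pandas 2.3.3.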

Additional observations from a re-analysis of the deposited data

Results flagged for a closer look

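The G2/M share of UMIs in score-high cells of GL261-GSCs replicate 4 was 0.303%, far from 0.417%, 0.433% and 0.418% in replicates 1 to 3. Its median over cells did not stand apart from replicate 3 in this way, at 6.20 UMIs per 10000 against 27.7, 29.7 and 10.1. The ratio of the mitophagy and autophagy list between the classes was 1.22 in replicate 4, against 1.102, 1.102 and 1.104 in replicates 1 to 3. Of 81 values checked for a sample apart 2 were so marked, and chance marks about 1 in 20.

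The high-low change differed between GL261-GSCs and GL261 in 8 genes (edgeR interaction term). The classes of GL261 were less apart in score than those of GL261-GSCs, as given above. The difference was 1.43 for Gpnmb, 1.27 for Eps8, 1.31 for Nupr1, a small stress-induced chromatin protein, and 0.95 for Cpe, a peptide-processing enzyme. It was 1.34 for Ahnak2, 2.04 for Rgs16, a regulator of G protein signalling, and 1.17 for Angptl2, a secreted glycoprotein. Their adjusted p ran from 0.00258 to 0.0401. Rgs16 had 26, 333, 21 and 9 UMIs in score-high cells of GL261-GSCs replicates 1 to 4, and 70, 522, 24 and 4 in score-low cells. Its ratio in replicate 4 thus rests on few UMIs. Cxcl2, a chemokine, had a difference of 6.56 (adjusted p = 0.0300), but 616 of its 625 UMIs in score-high cells of replicate 1 lay in 1 cell.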

How the results depend on the processing

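The 2944 genes called between the classes became 0 with no replicate block (1675 at an unadjusted p under 0.05, edgeR). Leaving out 1 library gave 711 (without replicate 3) to 2011 (without replicate 1), and leaving out replicates 1 and 2 gave 5024. The count was 1830 with the top 20%, 384 with at least 10000 UMIs, 831 within UMI deciles, 742 with the score from thinned cells and 1712 with the UMIs split. It was 0 with Bnip3, Ndrg1, Egln3 and Vegfa alone as score and 0 without Slc2a1 (2177 and 2516 at an unadjusted p under 0.05), and the cause was not tested. DESeq2 gave 2587. The 8 genes whose change differed between groups became 60 with DESeq2, 576 with no filter, 44 with the top 5%, 0 with the top 20% (1388 at an unadjusted p under 0.05), 19 against all other cells, 0 to 15 without 1 library, 3345 without GL261-GSCs replicates 1 and 2 and 820 without 3 and 4. For all cells, 5893 genes became 6434 with the replicate block, 2100 to 6564 without 1 library and 9998 without replicates 1 and 2. There replicates share only a number. The 3 held-out score genes became 1 to 5 without 1 library and 6 without replicates 1 and 2. Without 1 library these fits called from 0 of 13126 to 3847 of 13161 genes. Without replicates 1 and 2 they called from 4430 of 13246 to 5462 of 13258. The difference in median UMIs turned to 0.125 within UMI deciles, by construction. Under the score of 4 genes, the mitochondrial difference turned to -0.178 percentage points, Thbs2 to -0.21 and Opalin to -0.00556. Opalin was -0.0547 without Slc2a1 in the score, Ube2c 0.0431 in cells low in cycle genes and Egln1 -0.30 without replicates 3 and 4; these causes were not tested. Of 75 named genes called, 72 kept their direction in each of the 21 settings that tested them, but Ppp1r3c was tested in 17 of these. They passed in 4 (Fkbp8) to 18 of the settings, among them Ifit1 in 9, Gja1, Col1a1 and Gpr17 in 10, and Ddit4, Gins2, Hk2, Olig2, Ramp2, Rbx1 and Rrm2 in 11. In 3 of the 21 settings no gene at all passed.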
